A study of Mus musculus with 27 samples.

Results

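Paneth cells sit at the base of the small intestinal crypt, and the genes described here encode what they secrete: Lyz1 and Lyz2 (lysozymes), Defa17 and Defa24 (α-defensins), Mmp7 (the protease matrilysin), Ang4 (an antimicrobial ribonuclease), Itln1 (the lectin intelectin-1) and Pla2g2a (a secretory phospholipase A2). They were chosen by name, as 8 well-known Paneth cell products of the mouse, with earlier results of these data known. Of the 8, 7 had counts among the 22524 genes of the count tables. Pla2g2a, annotated as a polymorphic pseudogene in the C57BL/6J reference, was not analysed here. The transcripts came from jejunal organoids, epithelial cultures grown in Matrigel from crypts of male C57BL/6 mice aged 8 to 12 weeks. The donors were 3 mice each from SPF facility 1 (SR), SPF facility 2 (SE) and a germ-free facility (GF), with cohoused littermates within a facility, so that facility, litter and microbiota cannot be told apart. At passages 5 to 8 each culture was split over a pair of libraries, 1 carrying the label untreated and the other the label TNF-treated (8 hr, TNF at 5 ng/mL), which makes 18 organoid libraries. The m-ICc12 line, an immortalised mouse small intestinal epithelial line, gave 3 libraries of each label, and untreated mouse embryonic fibroblasts (MEFs) gave 3. Nothing in the labels says that the m-ICc12 and MEF replicates were separate isolates, so that their p-values measure only the spread between these samples, which may be technical.

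Paneth cells store these proteins in granules and release them into the crypt. There α-defensins, lysozyme, Ang4 and secretory phospholipase A2 act on bacteria. Matrilysin cuts mouse pro-α-defensins into their active form, and intelectin-1 binds sugars of microbial surfaces and is also made by goblet cells. Lyz1 is the lysozyme of mouse Paneth cells, whereas Lyz2 is the lysozyme of macrophages and other myeloid cells.

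Several members have close copies in the genome, which limits how far a read can be assigned to 1 gene. In GRCm38 with the GENCODE vM21 annotation, Defa17 (ENSMUSG00000060208) lies at chr8:21655780-21656735 and Defa24 (ENSMUSG00000064213) at chr8:21734494-21735471, both on the plus strand with 2 exons. The coding sequences of both defensins (279 bases each, stop codon left out) are identical at 267 positions. They are shown 5′ to 3′, with the 12 differing bases in capitals, since these are the letters on which a read would have to be placed:
Defa17: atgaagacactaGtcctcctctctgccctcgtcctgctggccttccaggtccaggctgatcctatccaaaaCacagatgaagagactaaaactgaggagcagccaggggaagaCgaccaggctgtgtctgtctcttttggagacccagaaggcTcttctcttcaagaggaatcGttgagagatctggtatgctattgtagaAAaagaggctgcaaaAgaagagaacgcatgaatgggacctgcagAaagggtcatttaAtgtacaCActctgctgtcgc
Defa24: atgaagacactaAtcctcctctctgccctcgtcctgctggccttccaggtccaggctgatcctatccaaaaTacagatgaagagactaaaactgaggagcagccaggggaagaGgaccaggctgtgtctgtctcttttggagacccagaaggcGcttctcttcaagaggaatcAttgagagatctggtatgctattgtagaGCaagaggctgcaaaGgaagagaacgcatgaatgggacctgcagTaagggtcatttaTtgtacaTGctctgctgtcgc
Lyz1 (ENSMUSG00000069515) at chr10:117287797-117292868 and Lyz2 (ENSMUSG00000069516) at chr10:117277331-117282321 lie next to each other on the minus strand with 4 exons each. Their coding sequences (444 bases each, stop codon left out) differ at 22 positions. The first 300 bases, with 20 of these in capitals, are shown because the level of 1 of them was high in organoids and that of the other was not:
Lyz1: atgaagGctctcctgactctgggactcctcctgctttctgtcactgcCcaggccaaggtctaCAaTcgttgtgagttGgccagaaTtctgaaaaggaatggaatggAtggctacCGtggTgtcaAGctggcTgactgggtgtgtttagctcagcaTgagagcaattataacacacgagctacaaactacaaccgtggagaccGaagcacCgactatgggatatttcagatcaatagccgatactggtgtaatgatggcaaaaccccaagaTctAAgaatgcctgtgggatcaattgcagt
Lyz2: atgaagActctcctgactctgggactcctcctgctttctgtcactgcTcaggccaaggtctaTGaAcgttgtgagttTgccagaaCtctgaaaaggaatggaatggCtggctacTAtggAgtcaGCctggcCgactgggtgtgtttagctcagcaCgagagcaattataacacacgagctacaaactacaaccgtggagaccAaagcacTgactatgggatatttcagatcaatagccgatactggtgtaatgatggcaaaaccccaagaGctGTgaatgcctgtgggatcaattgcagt
Of the stretches of 100 bases along the longest transcript, 97.9% of Lyz1, 98.0% of Lyz2 and all of Defa24, Mmp7, Ang4 and Itln1 occur in the transcripts of no other gene. For Defa17 this holds for 9.40%, the other stretches being shared mostly with Defa3 and Defa30. Counts of Defa17 are therefore uncertain. The other members are at chr9:7692090-7699585 (Mmp7, ENSMUSG00000018623, plus strand, 6 exons), chr14:51763878-51773590 (Ang4, ENSMUSG00000060615, minus strand, 2 exons) and chr1:171518122-171535294 (Itln1, ENSMUSG00000038209, minus strand, 8 exons). In RefSeq windows of GRCm38.p6, from 250 bases before to 50 after the start, the letters CTTTGAT, known to be bound by the TCF factors of the Wnt pathway, were found on the reverse strand in the windows of Mmp7 and not in those of Lyz1, Lyz2, Ang4 or Itln1. Of 32851 windows of this length, 3.73% hold these letters on either strand. The 2 windows of Mmp7 overlap and hold the same single site. No window was at hand for Defa17 and Defa24, which were not searched.

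The libraries held between 6071103 and 43843615 counts on genes, and the organoid libraries between 11440041 and 35283218. At these depths 3 counts correspond to 0.0684 to 0.494 CPM, the count relative to the size of the library. All levels are CPM after TMM scaling, which corrects for differences in library composition. None of the stem, goblet, enterocyte, enteroendocrine, tuft or epithelial markers examined was at or under 3 counts in all organoid libraries. That rule is weak, since only 1 of 5 fibroblast and 2 of 8 myeloid markers failed it in those labelled untreated. There the summed epithelial markers lay between 4447 and 5356 CPM, against 6.77 to 11.6 CPM in MEFs. The goblet sum was 1166 to 1590 CPM, against 1.46 to 2.98 CPM. The tuft sum went the other way, at 6.35 to 16.3 CPM against 39.9 to 50.3 CPM in MEFs. Its 4 members were split, however. Dclk1 was called lower in organoids than in MEFs (edgeR log2 fold change -5.24), Pou2f3 (9.48) and Trpm5 (9.95) were called higher, and 1 was not called. Pou2f3 and Trpm5 were at or under 3 counts in all MEF libraries, so that their calls are a description. The treatment labels did not pass a check on known NF-κB targets. Nfkbia, the inhibitor that TNF induces through NF-κB, lay between 23.7 and 36.4 CPM in the 9 organoid libraries labelled TNF-treated and between 150 and 225 CPM in the 9 labelled untreated, and Nfkb2, Tnfaip3, Relb and C3 were also lower under the TNF label, in organoids and in m-ICc12 cells alike (5 of 5 called in each). The names of the deposited data carry the treatment the other way round in all 12 pairs. Directions are therefore given as labelled. Exchanging the label within the pairs turns the sign of every label difference below and leaves its size and p unchanged. Levels and cell line comparisons below that use libraries labelled untreated would in that case describe TNF-treated organoids and m-ICc12 cells. The MEF libraries have no partner to exchange. Values labelled untreated can therefore not be taken as resting values.

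The 7 members fell into a high group (Itln1, Lyz1, Defa24), a low group (Ang4, Mmp7, Defa17) and Lyz2, which was near background. In the 9 organoid libraries labelled untreated, Lyz1 had a mean of 137 ± 32.6 CPM (SD, n = 9), with a lowest value of 73.4, a median of 141 and a highest of 179 CPM. Itln1 ranged from 84.99 CPM over a median of 198 to 302 CPM, and Defa24 from 18.8 over 30.3 to 101 CPM. These genes were well above the detection limit in all organoid libraries. Ang4 ran from 0.488 over 7.54 to 26.8 CPM, Mmp7 from 3.40 over 5.87 to 18.8 CPM, and Defa17 from 1.22 over 4.23 to 5.45 CPM. Lyz2 was at 0 in 3 of these 9 libraries and had a median of 0.190 CPM, with 1 library at 4.44 CPM. Together the members took between 0.0182% and 0.0543% of an organoid library.

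Per kilobase of the longest transcript, the order of the members was Itln1, Lyz1, Defa24, Ang4, Defa17, Mmp7 and Lyz2. In the libraries labelled untreated, Itln1 had 165 ± 73.1 CPM per kb (SD, n = 9), Lyz1 108 ± 25.8 and Defa24 96.4 ± 62.0, so that these neighbours differed by less than their spread. Ang4 (14.0 ± 11.1), Defa17 (9.40 ± 4.51) and Mmp7 (6.84 ± 4.71 CPM per kb) likewise differed from each other by less than their spread. The gap between the high and the low group exceeded it. Lyz2 followed with 0.529 ± 1.08 CPM per kb.

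**Figure D1:**
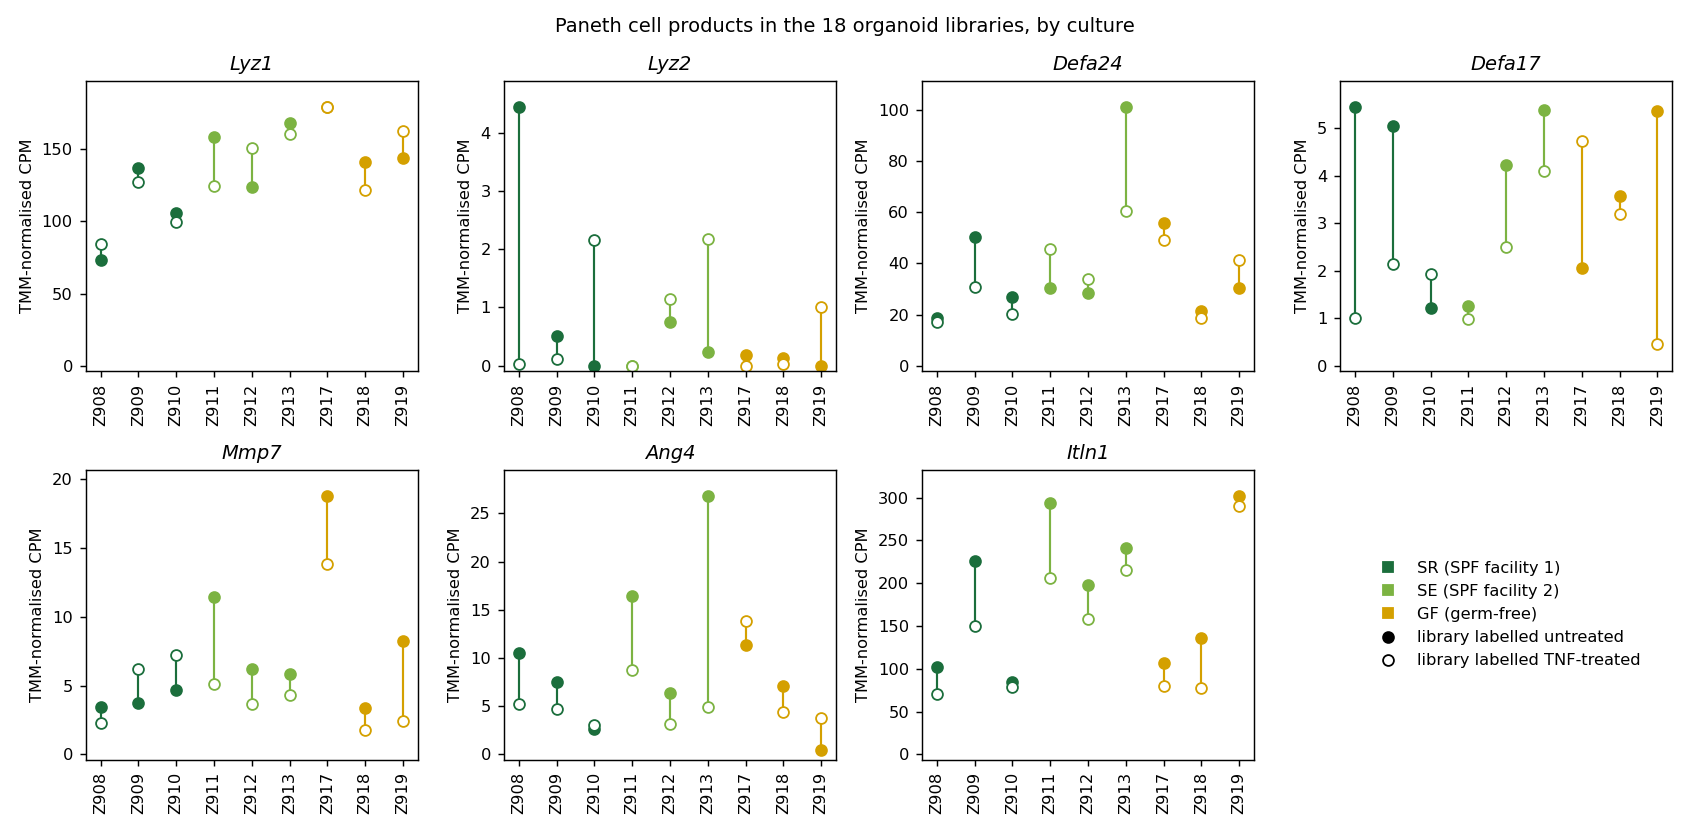
TMM-normalised CPM (y axis, linear) of the 7 members in the 9 organoid cultures (x axis), with filled points for the library labelled untreated, open points for the library labelled TNF-treated, a line joining the 2 libraries of a culture, and colours for the facility. Each open Itln1 point lies under its filled point, Lyz1 is lowest in Z908 (73.4 and 84.4 CPM) and Mmp7 is highest in Z917 (18.8 and 13.8 CPM).

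How far single organoid cultures differed in Paneth cell products was asked first. Lyz1, Defa24 and Itln1 differed between the cultures by more than the spread between the 2 libraries of a culture, whereas Defa17, Mmp7 and Ang4 did not pass the test. With the label in the model, edgeR's quasi-likelihood F-test over the cultures called 3 of 6 members tested, against 12% of all 12104 genes. The adjusted p was 2.49e-13 for Itln1, 2.45e-06 for Defa24 and 6.27e-06 for Lyz1, and 0.0823, 0.0935 and 0.912 for Ang4, Mmp7 and Defa17. DESeq2 called 5 members, Mmp7 and Ang4 included, and 21.1% of all genes.

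Itln1 spanned the cultures 3.62-fold. The culture means were 86.6 (Z908), 187 (Z909) and 81.9 CPM (Z910) in SR, 250 (Z911), 178 (Z912) and 228 CPM (Z913) in SE, and 93.7 (Z917), 107 (Z918) and 296 CPM (Z919) in GF. Thus 4 cultures lay at 107 CPM or under and 5 at 178 CPM or above, with both kinds in SR and in GF. Lyz1 varied least, by 2.27-fold, from 78.9 CPM in Z908, the lowest culture, to 179 CPM in Z917, and its coefficient of variation over the 9 culture means was 22.5% against 47.4% for Itln1. Defa24 was also lowest in Z908 (17.99 CPM) and 4.50-fold higher in Z913 (80.9 CPM). Mmp7 spanned 6.31-fold, its mean being 16.3 CPM in Z917 and between 2.58 and 8.29 CPM in the other cultures. Ang4 spanned 7.41-fold, from 2.14 CPM in Z919 to 15.9 CPM in Z913. Defa17 lay between 1.12 CPM (Z911) and 4.74 CPM (Z913).

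Markers of other epithelial cell types differed between the cultures as well. All 5 goblet markers, all 6 enterocyte markers and all 5 stem markers were called in the same test, as were 2 of 5 enteroendocrine and none of 4 tuft markers. The share over all genes was 12%. In the libraries labelled untreated the summed level was 1155 to 4354 CPM for the enterocyte list, 1185 to 3019 CPM for the stem list and 1166 to 1590 CPM for the goblet list, and no marker of these 3 lists was at or under 3 counts throughout. Their part in the differences of the members was not tested, and in such bulk samples fewer Paneth cells and less RNA per Paneth cell cannot be told apart.

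The 2 libraries of a culture repeated its Itln1 level closely. Over the 9 cultures, the log2 CPM of the library labelled untreated and that of its partner had a Pearson's r of 0.948 (exact permutation p = 0.000584, adjusted over 6 members 0.00351) and a Spearman's rho of 0.883 (exact permutation p = 0.00308, adjusted 0.00923). Without the 2 cultures farthest from the median, r was 0.950. For Lyz1 r was 0.856 (exact permutation, adjusted p = 0.00787) and rho 0.767 (adjusted p = 0.0321). For Defa24 r was 0.788 (exact permutation, adjusted p = 0.0192) and rho 0.883 (adjusted p = 0.00923). Leaving out the 2 farthest cultures narrows the range of levels, which can by itself lower r. Without them r was 0.444 for Lyz1 and 0.594 for Defa24 (exact permutation p = 0.309 and 0.154). Whether these 2 relations rest on those cultures can therefore not be told from this. Both also fell under the threshold without Z908 alone (r = 0.717 and 0.730, exact permutation, adjusted p = 0.0878 for each), and Defa24 also without Z913 (r = 0.707, adjusted p = 0.110) or Z918 (r = 0.754, adjusted p = 0.0609). Ang4 passed by rank (rho = 0.833, exact permutation, adjusted p = 0.0165) and not by r (0.494, adjusted p = 0.206). Mmp7 had r = 0.603 and rho = 0.533 (exact permutation, adjusted p = 0.129 and 0.177), and Defa17 r = -0.0764 and rho = -0.0667 (exact permutation, adjusted p = 0.838 and 0.880). The largest of the 15 correlations between members over the culture sums was that of Lyz1 with Defa24 (r = 0.802, exact permutation, adjusted p = 0.129; rho = 0.867, adjusted p = 0.0676), and none of the 15 passed. It fell to 0.747 without the 2 farthest cultures. No batch is named in the labels. Within a facility only 3 cultures exist, too few for a correlation.

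**Figure D2:**
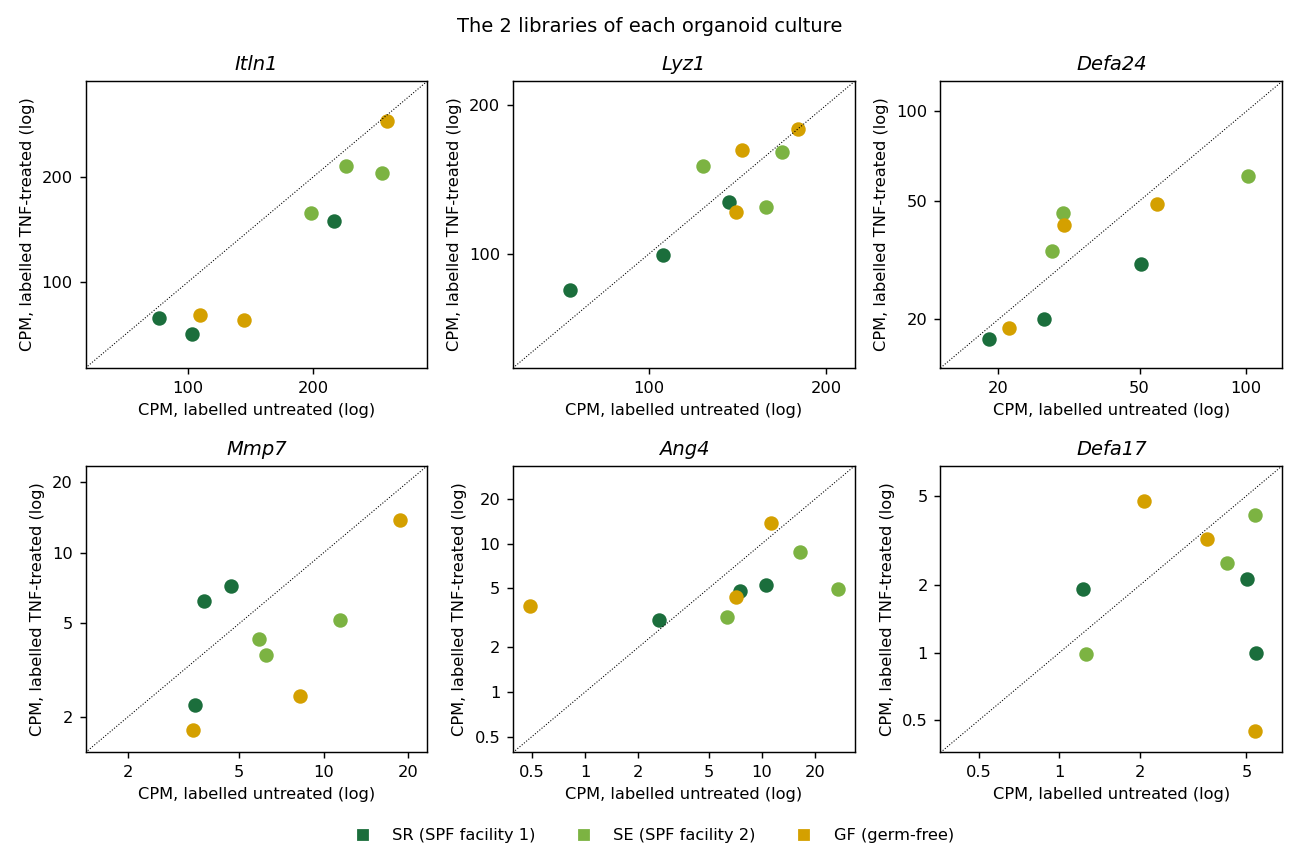
CPM of each member in the library labelled untreated (x axis) and the library labelled TNF-treated (y axis) of the 9 organoid cultures, on log axes with equal values on the dotted line and colours for the facility. The Itln1 points line up (r = 0.948) under the dotted line, and the Defa17 points do not line up (r = -0.0764).

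Whether TNF treatment changed the members in organoids was asked by comparing the libraries by label. Itln1 was lower in the library labelled TNF-treated than in its partner in 9 of 9 cultures, with a ratio between 0.570 and 0.958 and a median of 0.751. Its lowest, median and highest values were 70.8, 149.5 and 289.6 CPM under the TNF label and 84.99, 198 and 302 CPM under the other, so that the groups overlapped although each pair pointed the same way. By ratio, the widest gaps were in Z918 (136 and 77.8 CPM, labelled untreated first), Z909 (225 and 149.5 CPM) and Z908 (102 and 70.8 CPM), and the narrowest in Z919 (302 and 289.6 CPM). With the culture as a block, Itln1 was 0.40 lower on the log2 scale (log2 fold change -0.40, SE 0.07, 95% interval -0.54 to -0.25, edgeR adjusted p = 0.000215), and it was the only member called of 6 tested, against 3.28% of all genes. It stayed called in 9 of 9 runs without 1 culture, with a log2 fold change between -0.44 and -0.34. Without the block, the spread between cultures entered the error, Itln1 had a log2 fold change of -0.36 (SE 0.27, adjusted p = 0.832), and edgeR called 0 of 6 members against 1.39% of 12104 genes. The count of members at an unadjusted p under 0.05 was 0 there, and DESeq2 called 0. The pairs are real, since both libraries stem from the culture of 1 mouse.

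Lyz1 was the member for which the label made least difference. Its level was 134.5 ± 31.2 CPM (SD, n = 9) under the TNF label and 137 ± 32.6 CPM under the other, lower in 5 and higher in 4 cultures, and in the block model its log2 fold change was -0.02 with a 95% interval of -0.16 to 0.12. Defa24 (-0.13, interval -0.40 to 0.14) was lower in 6 of 9 cultures. Mmp7 (-0.54, -1.22 to 0.15) and Defa17 (-0.74, -1.93 to 0.45) were each lower in 7 of 9, and Ang4 (-0.47, -1.21 to 0.27) in 6 of 9 cultures. None of these passed the test, and their intervals leave room for changes of a size that these libraries cannot show. Ang4 had a lowest, median and highest value of 3.04, 4.75 and 13.9 CPM under the TNF label, and its libraries of Z913 stood at 26.8 CPM labelled untreated and 4.92 CPM labelled TNF-treated, whereas those of Z919 stood at 0.488 and 3.80 CPM. Mmp7 lay between 1.76 and 13.8 CPM under the TNF label (median 4.28 CPM), and the SR cultures Z909 and Z910 had more of it under that label (6.20 and 7.24 CPM, against 3.74 and 4.65 CPM). The Defa17 libraries of Z908 and Z919 differed most, at 5.45 and 0.998 CPM in Z908 and at 5.37 and 0.450 CPM in Z919 (labelled untreated first). Over the 6 members the median log2 fold change without the block was -0.43, against -0.000305 over all genes. The label responses of GF and SPF organoids were not called different for any of 7 members by edgeR or DESeq2 (0 at an unadjusted p under 0.05), nor for any of 12640 genes by edgeR, that is 0% called.

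Among cell type markers, 2 of 5 stem markers were lower under the TNF label, Olfm4 (log2 fold change -1.82, SE 0.29, adjusted p = 0.000238) and Ascl2 (-1.70, SE 0.23, adjusted p = 3.45e-05), and the summed stem list ranged from 803 to 1830 CPM there and from 1185 to 3019 CPM under the other label. Of the goblet markers, whose cells also make intelectin-1, 0 of 5 were called, with sums of 1187 to 1729 CPM under the TNF label and 1166 to 1590 CPM under the other. These counts are from the model without the block, which called 1.39% of all genes, against 3.28% with it. With the block, which called Itln1, 1 of 5 goblet markers was higher under the TNF label, Fcgbp (a mucus protein, log2 fold change 0.15, SE 0.04, adjusted p = 0.0210), the same 2 stem markers were lower, and 2 of 6 enterocyte markers were called, Sis higher (0.20, SE 0.04, adjusted p = 0.00199) and Apoa1 lower (-0.49, SE 0.08, adjusted p = 4.08e-05). The part of these lists in the Itln1 difference was not tested.

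**Figure D3:**
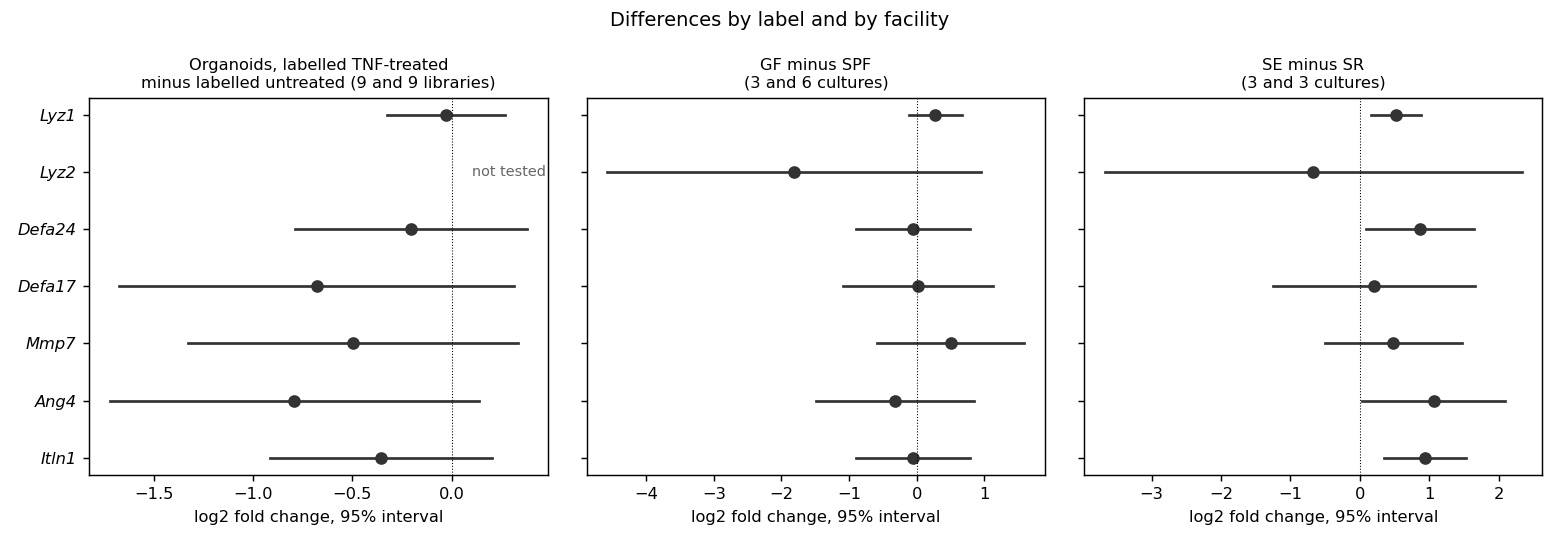
Log2 fold changes (points) with 95% intervals (lines) from edgeR for the label comparison of organoids without the block, for GF minus SPF and for SE minus SR, each on its own x axis, with the members on the y axis. No interval leaves out 0 in the label and GF panels, and those of Lyz1, Defa24, Ang4 and Itln1 do so in the SE panel, before adjustment.

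Next, the members were compared by the microbiota of the donor. GF and SPF cultures had Paneth cell products at levels that overlapped for each member. The summed counts of a culture were taken as 1 sample. Lyz1 had culture means of 179, 131 and 153 CPM in GF and of 78.9 to 164 CPM in the 6 SPF cultures, with a log2 fold change of 0.28 (95% interval -0.12 to 0.67). The estimates of Itln1 (-0.05, -0.90 to 0.79) and Defa24 (-0.05, -0.89 to 0.79) were near 0 with intervals of nearly 1 log2 unit on either side. Mmp7 (0.51, -0.58 to 1.59), Ang4 (-0.32, -1.49 to 0.85) and Defa17 (0.03, -1.09 to 1.14) had wider intervals. Lyz2 had the largest estimate (-1.81, -4.57 to 0.95), between -3.27 and -1.37 without 1 culture, from 0 to 120 counts a culture. The Mmp7 estimate was -0.63 without the GF culture Z917. edgeR called 0 of 7 members, 0 of them at an unadjusted p under 0.05, against 0.054% of 12970 genes, and DESeq2 called 0 as well.

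Between the 2 SPF facilities no member passed the threshold. Lyz1 was higher in SE (141, 137 and 164 CPM) than in SR (78.9, 132 and 103 CPM), with a log2 fold change of 0.52 (95% interval 0.16 to 0.89). Its groups did not overlap, but the nearest cultures stood at 137 CPM (SE) and 132 CPM (SR). So few cultures a side can separate by chance, and the share of all genes that do so was not counted. Lyz2 (-0.67, -3.68 to 2.33), Defa17 (0.20, -1.25 to 1.66) and Mmp7 (0.48, -0.51 to 1.47) had intervals that held 0. Itln1 (0.94, 0.35 to 1.54), Defa24 (0.86, 0.08 to 1.64) and Ang4 (1.06, 0.03 to 2.10) had culture means that overlapped between the facilities. After adjustment over 12908 genes, 0 of 7 members and 0.00775% of genes were called by edgeR (adjusted p = 0.9998 for each member), DESeq2 called 0 members, and 4 members had an unadjusted p under 0.05, as had 520 genes. Itln1 was called without the SR culture Z909 (log2 fold change 1.44, adjusted p = 0.0210, 0.0667% of genes called), and in none of the 5 other runs that left out 1 culture.

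The members were then followed into the cell lines that serve as models of the gut epithelium and of fibroblasts. Of the 7 members, m-ICc12 cells and MEFs held at most 0.870 CPM each, with Mmp7 in m-ICc12 cells as the exception. In the 3 m-ICc12 libraries labelled untreated, Lyz1 was at 0.380, 0.218 and 0.0960 CPM, and in MEFs at 0.0950, 0.125 and 0.344 CPM. The mean of the organoid libraries labelled untreated was 617-fold higher than the pooled m-ICc12 level (95% Poisson interval of the counts in m-ICc12, 424 to 936) and 822-fold higher than that of MEFs (520 to 1386). Itln1 was 762-fold higher than in m-ICc12 cells (534 to 1130) and 968-fold higher than in MEFs (633 to 1563), and Defa24 984-fold (422 to 3030) and 1093-fold (427 to 4010). Ang4 had 0 counts in the 3 m-ICc12 libraries labelled untreated and in the 3 MEF libraries, and taking 3 counts per library as the limit, averaged over the 3 libraries, it was at least 132-fold and at least 114-fold higher in organoids. Defa17 had 1 count in all 3 m-ICc12 libraries together (454-fold, 81.5 to 17945) and 0 in MEFs (at least 42.9-fold). The intervals cover counting error only, since PCR reads without molecular identifiers are not independent molecules.

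Of 6 members tested, edgeR called 6 higher in organoids than in m-ICc12 cells, against 31.6% of 12962 genes, and 6 of 6 higher than in MEFs, against 34.6% of 13144 genes. Defa17, Defa24 and Ang4 passed the filter on low counts only through the organoids, as did all 6 members in the comparison with MEFs, so that these counts are a description. Mmp7 was the member on which the call depended. Its levels were 2.45, 1.96 and 3.62 CPM in the m-ICc12 libraries labelled untreated, 2.74-fold under the organoid mean (2.46 to 3.06) with the lowest organoid library at 3.40 CPM, so that the ranges overlapped (log2 fold change 1.47, SE 0.62, adjusted p = 0.0492). The call was lost without the filter on low counts (adjusted p = 0.0641, 26.6% of genes called higher), with all 27 libraries in 1 fit (adjusted p = 0.0659, 32.3%), and in 8 of 12 runs without 1 culture or replicate, namely Z911, Z912, Z913, Z917, Z919 or any m-ICc12 replicate, where the adjusted p lay between 0.0550 and 0.152. DESeq2 kept the call (log2 fold change 1.42, adjusted p = 0.0227). With libraries labelled TNF-treated on both sides, edgeR gave a log2 fold change of 4.55. That value is a description, since Mmp7 then passed the filter only through the organoids.

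Mmp7 was also the member that split the m-ICc12 libraries by label. Under the TNF label it was at 0.174, 0.0536 and 0.432 CPM (1, 2 and 9 counts) and under the other label at 2.45, 1.96 and 3.62 CPM (84, 90 and 151 counts), 14.1, 36.6 and 8.38 times as high in replicates 1, 2 and 3. The groups did not overlap, which 3 libraries a side can show by chance, and the share of all genes that separate in this way was not counted. The log2 fold change was -3.58 (SE 1.14, 95% interval -5.99 to -1.16), with an adjusted p of 0.766 by edgeR and 0.112 by DESeq2. Thus 0 of 3 members tested were called, 1 having an unadjusted p under 0.05, against 0.11% of 11861 genes. The difference between the Mmp7 responses of organoids and m-ICc12 cells was 3.10 on the log2 scale (SE 0.98, adjusted p = 0.379), and 0 of 6 members were called against 0.159% of 13183 genes, with 0 by DESeq2 and 1 at an unadjusted p under 0.05. Lyz1 and Itln1 in m-ICc12 cells lay at 0.870 CPM or less under both labels. In MEFs Mmp7 had 0 counts in the 3 libraries, against 325 in the 3 m-ICc12 libraries labelled untreated. edgeR called it higher in m-ICc12 cells (1 of 3 members, against 28.1% of 12830 genes), and 0 members with the m-ICc12 libraries labelled TNF-treated in their place (26.8% of genes). It passed the filter only through m-ICc12 cells, so that the call is a description.

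**Figure D4:**
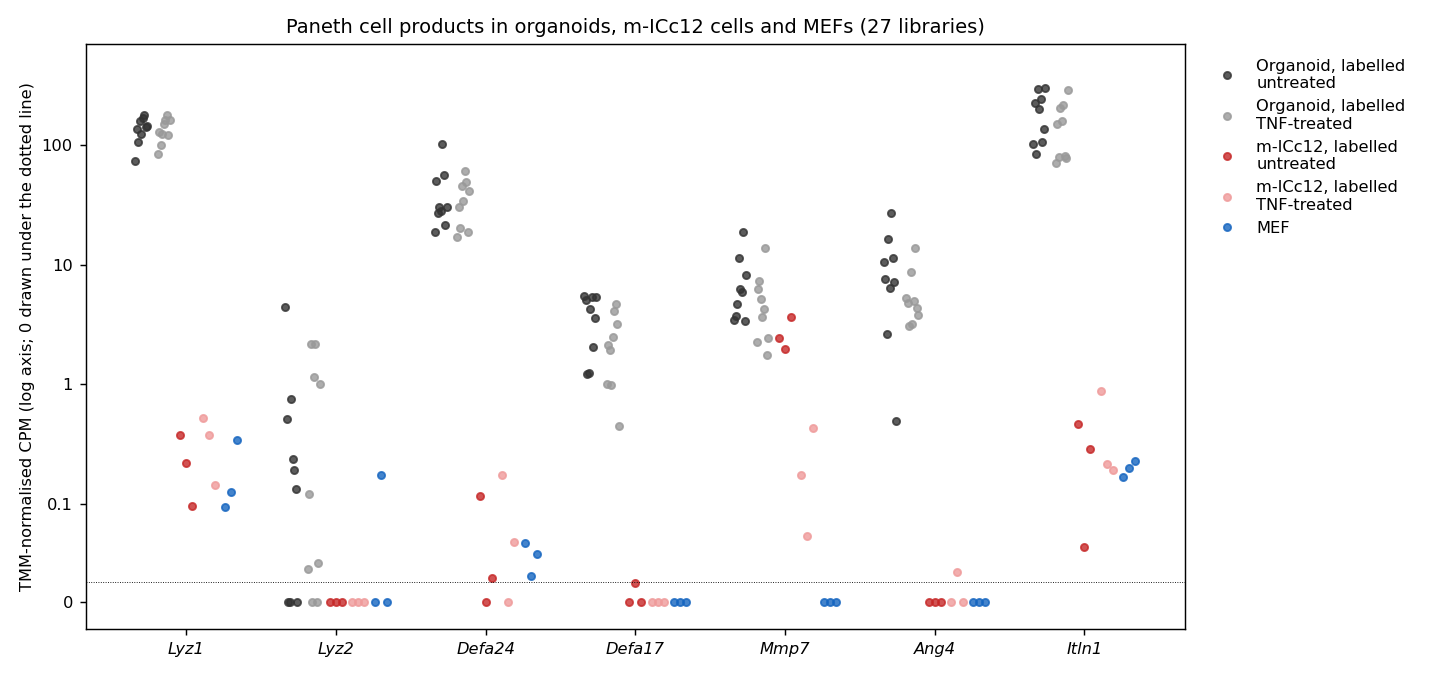
TMM-normalised CPM (y axis, log scale, with 0 drawn under the dotted line) of the 7 members (x axis) in all 27 libraries, each point 1 library, coloured by model and label. Organoid points of Lyz1, Defa24, Defa17, Ang4 and Itln1 lie above all points of the cell lines, the Lyz2 points reach down to 0, and the m-ICc12 points of Mmp7 labelled untreated (1.96 to 3.62 CPM) meet the lower organoid points.

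Lyz2 behaved unlike the other members. It had 0 counts in all 6 m-ICc12 libraries, 0, 7 and 0 counts in MEFs, and between 0 and 119 counts in organoid libraries, where it passed the filter only in the facility and GF response models. The 2 libraries of the SR culture Z908 held 119 counts (labelled untreated) and 1 count. The library with 119 counts also held 156 counts of Csf1r and 127 of Tyrobp, genes of macrophages and other myeloid cells, and 258 of Itgam, whereas the other 5 markers of the list (Ptprc, Adgre1, Fcer1g, Laptm5 and Cd68) were at 2 counts or fewer. It had 20.3 CPM over the 8 myeloid markers, against 3.97 to 11.7 CPM in the other organoid libraries. Itgam was not particular to it, at 8 to 251 counts in the other organoid libraries. The library with 251, of Z918 labelled TNF-treated, had 1 count of Lyz2. The m-ICc12 libraries, with 0 counts of Lyz2, held 74.9 to 144 CPM over the 8 markers and 792 to 4532 counts of Csf1r. These markers therefore need not track Lyz2 here. The macrophage marker Adgre1 was at 0 in all organoid libraries, and the leukocyte marker Ptprc at 5 counts at most. The libraries next in Lyz2 counts, of Z913 and Z910 labelled TNF-treated (58 and 54 counts), had 2 and 1 counts of Csf1r and 0 of Tyrobp. The part of myeloid RNA in the Lyz2 level was not tested.

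Other secreted products and regulators of Paneth cells were taken from lists. Of 38 further Paneth cell products, mostly α-defensins, 30 were among the genes counted and 8 passed the filter in organoids. In all 9 organoid libraries labelled untreated, 16 of the 30 were at or under 3 counts, and 14 in all 9 labelled TNF-treated. Most of these were α-defensins. How far their reads can be told apart from those of close copies was not examined. The handling of reads matching several places is not known either, so that low counts of an α-defensin do not show its absence. Among the 8 that passed, Defa30 was the only α-defensin, and it shares stretches with Defa17. By label, 1 of these 8 was called, the C-type lectin Reg3g (log2 fold change -1.85, SE 0.20, adjusted p = 6.40e-07), lower under the TNF label, and the median of the 8 was -0.05. Of 20 genes for Paneth cell formation and granules, 0 of 19 tested were called by label (median -0.06), and with the block 1, Agr2 (log2 fold change 0.26, SE 0.07, adjusted p = 0.0299), higher under the TNF label. Over all genes, 1.39% were called by label without the block and 3.28% with it. The cultures differed in 4 of the 8 products, the smallest p being those of Spink4, Reg3b and Nupr1, and in 4 of the 19 formation and granule genes, among them Slc30a2 (the zinc transporter of the granules, adjusted p = 2.06e-08), Agr2 (a chaperone of secretory cells, adjusted p = 0.000433) and Kcnn4 (a calcium-activated potassium channel, adjusted p = 0.00909). Between cultures edgeR, which gave these counts, called 12% of all genes, and DESeq2 21.1%. Between GF and SPF, and between SE and SR, 0 of 10 products and 0 of 20 formation and granule genes were called by edgeR. The shares over all genes were 0.054% and 0.00775%. Against m-ICc12 cells, 7 of 9 products were higher in organoids and 1 was lower, Lcn2 (lipocalin-2, which binds bacterial siderophores; log2 fold change -7.40, SE 0.72, adjusted p = 1.57e-07). Of the formation and granule genes 17 of 20 were higher and 1 was lower. Over all genes, 31.6% were called higher in organoids. In all 6 m-ICc12 libraries, 24 of the 30 products and 4 of these 20 genes were at or under 3 counts. Those of them that were tested passed the filter only through the organoids, so that their calls are a description. In m-ICc12 cells Lcn2 was lower under the TNF label (-1.72, SE 0.20, adjusted p = 0.000499), the only 1 of 4 products called there, against 0.11% of all genes. Among paralogs of the members, Mmp15, a membrane-bound metalloprotease, was called lower under the TNF label in organoids (-0.66, SE 0.15, adjusted p = 0.0200), 1 of 4 tested, against 1.39% of all genes.

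For each member the genes with the most similar pattern over the 9 summed organoid cultures were looked up among 12471 genes by Pearson's r of log2 CPM, as a description. For Lyz1 these were Gpr39 (r = 0.965), Nucb2 (0.940) and Psmc3ip (0.930), and for Defa24 Parp14 (0.988), Ttc14 (0.942) and Gpr180 (0.931). Mmp7 was most like Alg6 (0.964), Ptpn14 (0.962) and Dock11 (0.959), and Ang4 most like Rab31 (0.989), Angptl4 (0.985) and Neu1 (0.970). Defa17 was nearest to Rassf8 (0.966), Tecpr1 (0.961) and Ppp4r1 (0.959), and Itln1 to Ercc1 (0.937), Adat1 (0.908) and Hltf (0.901). No member was among the 3 most similar genes of another member. The 9 points behind each r are the same cultures, which also differ in depth and in their make-up of cell types.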

How the data were processed

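RNA of 27 samples was poly-A-selected and made into TruSeq (v2) libraries, which the labels call stranded and the study's methods do not. Per the study's methods, the authors checked reads with FastQC, removed adapters with Trimmomatic, cut off 5 bases at the 3′ end, aligned single-end reads to GRCm38 (Ensembl release 91) with STAR and counted with GenomicRanges. The submitters' processing notes list STAR 2.5.4b and featureCounts. Use of strand and of reads matching several places is not given in the sources used here, which matters for the defensins and lysozymes. The deposited values are whole-number read counts per gene, not normalised.

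Symbols came from GENCODE vM21 names (22214 of 22524 identifiers matched). Groups follow the sample labels. CPM used TMM factors over all libraries. Genes entered a test where 1 group had 50% or more of its libraries at 10 counts or above, and were called at a Benjamini-Hochberg adjusted p under 0.05 over all genes tested, by edgeR 4.0.16 (quasi-likelihood F-test, R 4.3.3), with only the groups compared in the fit. DESeq2 1.42.0 was an alternative. Facility comparisons used culture sums. Exact two-sided permutation tests over cultures took log2 CPM (prior count 2). On simulated counts with 195 genes changed by 2 log2 units, 87.7% were recovered in the organoid label comparison, with 6.56% false calls. Over all comparisons recovery lay between 70.2% and 87.7%, and false calls between 4.24% and 9.04%. In the label simulation no culture effect was drawn, and its changes exceeded the label differences of the members in organoids. Recovery is therefore no measure of power for the members. Depth was 6071103 to 43843615 counts, and a 3-count floor is 0.0684 to 0.494 CPM.

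The libraries of an organoid culture share their mouse, and their deviations from the label means correlated between 0.0860 and 0.318 in the 9 pairs, so that the block is given in the text. Named were the members, the 3 genes most like each, and up to 3 called genes of each list with the smallest p. Members and lists were chosen with earlier results of these data known. Alternatives were DESeq2, no filter, the block, facility as covariate, all libraries in 1 fit, single labels, other scalings and leaving out each culture. The block without each culture in turn was added after seeing the data.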

Additional observations from a re-analysis of the deposited data

Results flagged for a closer look

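In 14 groups of 9 organoid libraries (7 members, each label), 3 libraries lay apart by Dixon's test at the 95% level (critical value 0.493). Chance marks about 1 group in 20 only for normally distributed values in separate groups. The test took CPM without log, which can be skewed, and both labels share the same cultures, so that this rate need not hold here. Lyz2 was at 4.44 CPM in the library of the SR culture Z908 labelled untreated, against 0.753 CPM in the next of that label. Defa24 was at 101 CPM in the library of the SE culture Z913 labelled untreated, the next being at 55.9 CPM, and the other library of Z913, at 60.5 CPM, was also the highest of its label. Mmp7 was at 13.8 CPM in the library of the GF culture Z917 labelled TNF-treated, the next being at 7.24 CPM, and the other library of Z917, at 18.8 CPM, was also the highest of its label.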

How the results depend on the processing

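The causes of the changes given here were not tested. With the culture as replicate block, 1 member (Itln1) was called by label in organoids in place of 0, and 397 genes in place of 168. DESeq2 called 5 members between cultures in place of 3. With TNF-labelled m-ICc12 libraries against MEFs, 0 members were called in place of 1. Some directions turned. For GF against SPF these were, in log2 units, Defa17 (-0.045 in libraries labelled untreated), and in those labelled TNF-treated Defa24 (0.067), Ang4 (0.55) and Itln1 (0.028). For SE against SR they were Defa17 (-0.11, labelled untreated), and under the TNF label Lyz2 (0.56) and Mmp7 (-0.26).

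Without 1 culture, GF against SPF ranged from -0.13 to 0.22 for Defa17, -0.41 to 0.32 for Defa24, -0.63 to 0.93 for Mmp7, -1.05 to 0.077 for Ang4 and -0.76 to 0.23 for Itln1. SE against SR ranged from -0.24 to 0.59 for Defa17, with 0 to 1 members called (1 without Z909). Lyz1 by label in organoids ranged from -0.067 to 0.014. Without Z908 only Itln1 kept a called correlation between its 2 libraries (1 to 3 members over the runs, Lyz1 and Defa24 being lost, Defa24 also without Z913 or Z918), and without Z917 the pair Lyz1 and Itln1 passed (0 to 1 pairs, r = 0.861).

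Counts of genes called moved by over 1.5 times for the m-ICc12 label (13; DESeq2 46, no filter 30, block 6, all libraries 35, without replicate 2 93), GF against SPF (7; DESeq2 24, either label alone 4, without Z917, Z918 or Z919 4), SE against SR (1; DESeq2 9, no filter 2, labelled untreated 0, without Z909 9, without Z910 or Z912 0), cultures (1448; DESeq2 2556), the GF response (0; DESeq2 1) and the m-ICc12 response (21; DESeq2 74, block 103, without m-ICc12 replicate 2 11 and replicate 3 40). The m-ICc12 replicates share only a number (correlation of deviations -0.00522 to 0.109), and the block changed no member's call there.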
